A study of Mus musculus with 8 samples.

Results

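The serotonin receptor genes were examined in the prefrontal cortex (PFC) of mice overexpressing *Rnf146*, which encodes an E3 ubiquitin ligase that acts in Wnt signaling. The family was taken as 10 symbols, *Htr1a*, *Htr1b*, *Htr1d*, *Htr1f*, *Htr2a*, *Htr2c*, *Htr3a*, *Htr4*, *Htr5a* and *Htr7*, and a gene was kept when its symbol was a row of the deposited table. Of the 10 symbols, 9 were among the 15039 genes of the table, and *Htr1d* was not analysed here. The rule itself uses no measured value, but the family was chosen with earlier results of these data known.

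RNA was sequenced from 8 PFC libraries, 4 of Rnf146-overexpressing and 4 of eGFP-overexpressing mice, with replicate numbers 1 to 4 in each group. All mice were wild-type C57BL/6NCrljOri males aged 6 weeks at surgery. They received an adeno-associated virus, AAV2/1-hsyn-RNF146-eGFP or, as controls, AAV2/1-hsyn-eGFP, by bilateral injection into the PFC, and the tissue was taken 4 weeks later. The hsyn promoter (human synapsin) drives expression in neurons, both vectors carry eGFP (a fluorescent protein), and the libraries hold RNA from all cells of the dissected tissue, with or without the vector. The mice sequenced after Rnf146 overexpression had been selected for the overexpression and for a social deficit, so they do not stand for every injected mouse. The labels do not say whether same-numbered mice shared a cage, a litter or a day.

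Serotonin is released in the cortex by axons of raphe neurons and acts on receptors of several classes. Receptors of the 5-HT1 and 5-HT5 classes couple to Gi/o proteins, which lower cAMP and open GIRK potassium channels. The 5-HT2 receptors couple to Gq and phospholipase C, 5-HT4 and 5-HT7 receptors couple to Gs and raise cAMP, and the 5-HT3 receptor is a cation channel opened directly by serotonin. In the cortex, *Htr1a* and *Htr2a* are known for opposite effects on pyramidal cells, and *Htr3a* marks interneurons that arise in the caudal ganglionic eminence.

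The deposited values were on a log2 scale from 7.86 to 18.79. They had been centred within pairs: in every gene the eGFP and the Rnf146 library with the same number gave the same sum whatever the pair, to within 1.4e-13. The 8 values of a gene therefore hold its mean and 4 pair differences, and the 2 groups have mirrored values with the same SD. A range over the libraries of a group thus shows the pair differences only, and not how far libraries varied before the centring. Differences are given as Rnf146 minus eGFP of a pair. The test was limma over all genes, blocked by replicate number, and a gene counted as called when its Benjamini-Hochberg adjusted p reached 0.1 or below. The scale compresses weakly expressed genes, so changes were also read as folds in approximate normalized counts, on a fitted variance-stabilizing curve, and are approximate to that extent. Depth per library is unknown. In bulk tissue, fewer cells of a type and less RNA per cell cannot be told apart.

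The target gene *Rnf146* was higher in all 4 pairs, by 2.82, 2.51, 2.66 and 2.58, as the labels of all 8 libraries have it. Over all 15039 genes, 123 were called higher and 65 lower. The total of 188 became 421 without pair 1, 42 without pair 2, 169 without pair 3 and 14 without pair 4. In single pairs the median over all genes was -0.0020 at the lowest and 0.0037 at the highest.

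Of the 9 receptor genes, 1 was called, *Htr7*, which was higher in Rnf146-overexpressing mice. Of all genes, 0.818% were called higher, 0.432% lower and 1.25% in either direction. On the deposited scale *Htr1a* and *Htr2c* had positive mean differences about as large as or larger than that of *Htr7* but were not called, whereas in approximate counts, where the lower level of *Htr7* is less compressed, *Htr7* had the largest fold, at 1.65 against 1.55 for *Htr2c* and 1.38 for *Htr1a*. The folds were not tested against each other. The largest negative means, those of *Htr3a* and *Htr2a*, were not called either. The other 4 receptors had mean differences between -0.03 and 0.04. Before adjustment, 4 of the 9 had a limma p of 0.05 or less, 3 of them higher and 1 lower, where 12.4% of all genes did, 6.45% higher and 5.98% lower. The 9 genes had a median difference of 0.01, against 0.00086 for all genes. Their median absolute difference was 0.16 and that of all genes was 0.05, while the median SD between pairs was 0.16 for the receptors and 0.10 for all genes.

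**Figure D1:**
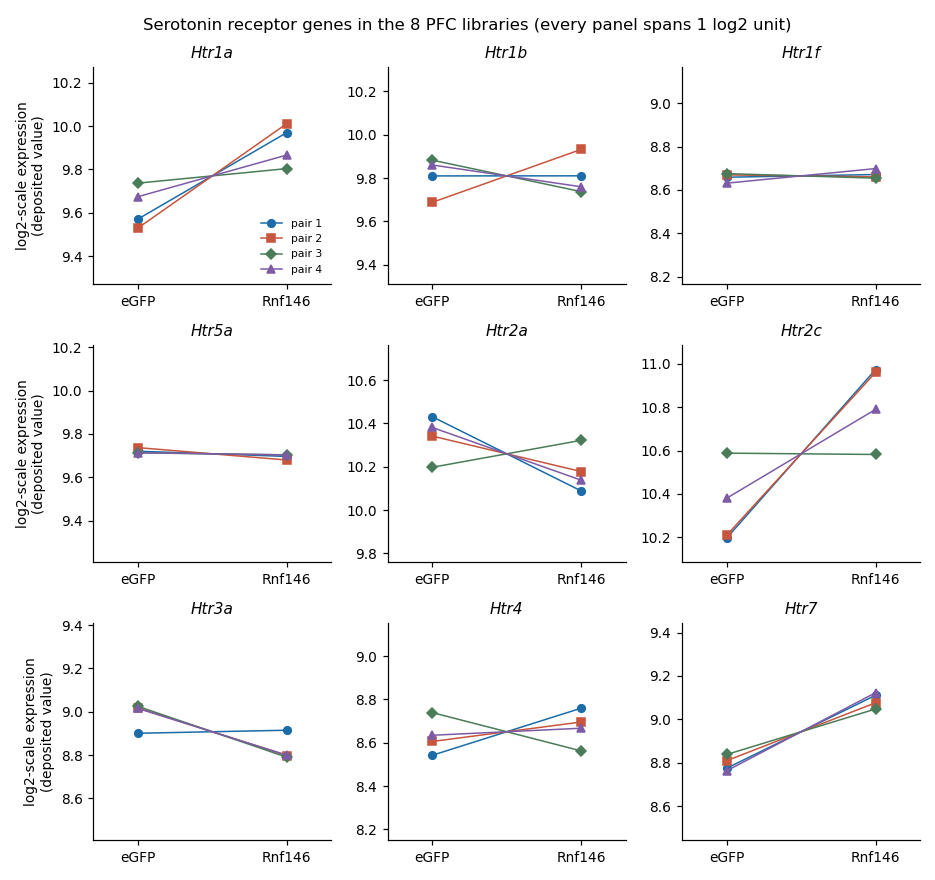
Deposited log2-scale expression of the 9 receptor genes in each library, with a line joining the eGFP and the Rnf146 library of a pair; every panel spans 1 log2 unit. The lines of *Htr7* all run upward, from 8.76 to 8.84 in eGFP libraries to 9.05 to 9.12 in Rnf146 libraries, and the lines of *Htr5a* are nearly flat.

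The sequences before the transcription start are shown for the 3 receptors with the largest positive mean differences and for *Htr1b*, whose mean difference was close to 0. Each is the 250 bases before a RefSeq start on GRCm38.p6, 5' to 3' on the strand of the gene. Capitals mark matches to CTTTGA (TCF/LEF core), CACCTG (an E-box of the kind that TCF4 binds) or GGGCGG (GC box), searched on both strands. Of 32851 RefSeq promoter windows of this length, 13.8%, 17.2% and 32.7% held these motifs.
Htr7, chr19:36057361-36057610, minus strand: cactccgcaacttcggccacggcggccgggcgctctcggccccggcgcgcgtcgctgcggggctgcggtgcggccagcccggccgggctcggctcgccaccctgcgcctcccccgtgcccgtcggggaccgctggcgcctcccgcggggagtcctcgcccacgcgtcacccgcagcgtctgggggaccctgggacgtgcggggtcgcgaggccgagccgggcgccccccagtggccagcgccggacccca
Htr1a, chr13:105443443-105443692, plus strand: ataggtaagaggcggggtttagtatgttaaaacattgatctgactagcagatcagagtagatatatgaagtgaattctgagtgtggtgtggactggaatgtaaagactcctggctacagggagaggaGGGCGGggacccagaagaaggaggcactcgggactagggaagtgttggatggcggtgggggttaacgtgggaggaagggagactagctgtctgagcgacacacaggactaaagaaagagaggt
Htr2c, chrX:146962263-146962512, plus strand: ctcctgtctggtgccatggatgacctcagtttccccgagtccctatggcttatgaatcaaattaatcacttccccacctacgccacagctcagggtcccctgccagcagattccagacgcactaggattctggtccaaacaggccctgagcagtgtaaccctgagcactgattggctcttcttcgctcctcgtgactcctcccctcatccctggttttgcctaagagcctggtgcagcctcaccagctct
Htr1b, chr9:81633833-81634082, minus strand: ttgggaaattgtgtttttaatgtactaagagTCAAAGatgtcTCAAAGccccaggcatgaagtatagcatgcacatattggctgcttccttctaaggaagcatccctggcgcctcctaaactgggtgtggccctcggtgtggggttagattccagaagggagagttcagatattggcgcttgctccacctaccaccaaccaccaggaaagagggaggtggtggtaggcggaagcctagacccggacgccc

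The window of *Htr7* held 41 CpG and had a GC content of 82.0%, and none of the 3 motifs matched there. The *Htr1a* window, with 6 CpG and 50.4% GC, had 1 GC box starting 123 bases before the start. In *Htr1b*, the reverse form of CTTTGA stood 219 and 208 bases before the start. The *Htr2c* window, with no match, had 5 CpG and a GC content of 55.6%. These are matches of letters only, and binding was not measured. *Htr3a* and *Htr4* had no window in the set used here.

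*Htr7* encodes the Gs-coupled 5-HT7 receptor and spans 99.36 kb (GRCm39, chromosome 19, 35935818 to 36035177, minus strand). Its deposited value was 8.77, 8.81, 8.84 and 8.76 in the eGFP libraries of pairs 1 to 4 and 9.11, 9.08, 9.05 and 9.12 in the Rnf146 libraries. The groups did not overlap, which in centred values means only that all 4 pairs were higher, as in 10.4% of all genes. Every pair differed by more than 0.2. The pair differences were 0.34, 0.27, 0.21 and 0.36, with a mean of 0.29 ± 0.07 (± SD over 4 pairs) and an adjusted p of 0.042 from limma with the replicate block. In approximate normalized counts, *Htr7* was 1.65-fold higher (95% interval 1.37 to 1.99), with an adjusted p of 0.047.

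*Htr7* ranked 72 of 15039 genes by p and 264 by absolute difference. On the deposited scale, its SD between pairs lay at percentile 25.2 of all genes. That of *Htr1a*, with a mean difference of 0.28, was at percentile 88.9. This scale compresses *Htr7* more, and in log2 approximate counts the SDs were 0.17 for *Htr7* and 0.31 for *Htr1a*. The call was lost without pair 2 (adjusted p = 0.163 from limma) and without pair 4 (adjusted p = 0.245), where the means were 0.30 and 0.27. Without pair 1 or pair 3 the adjusted p was 0.063 and 0.067.

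The genes whose 4 pair differences were nearest to those of *Htr7* by Euclidean distance over the 4 pairs were *Efcab1*, *Pip5k1b* and *Peg3*. *Efcab1*, which encodes an EF-hand protein, had 0.33, 0.29, 0.21 and 0.34, at a distance of 0.029. *Pip5k1b*, a lipid kinase gene, had 0.30, 0.21, 0.18 and 0.32, at a distance of 0.081. The imprinted gene *Peg3* had 0.32, 0.35, 0.16 and 0.33, at a distance of 0.10. With 4 values per gene such likeness is a description.

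*Htr4*, the other Gs-coupled member, showed no common direction. It lies on chromosome 18 (GRCm39, 62456716 to 62629648, plus strand). Its pair differences were 0.22, 0.09, -0.18 and 0.03, and the mean of 0.04 ± 0.16 (± SD over 4 pairs) lay well inside that spread, with an adjusted p of 0.853 from limma. *Htr4* was weakly expressed, at percentile 15.0 of the mean values, and its 95% interval in counts ran from 0.794-fold to 1.502-fold.

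*Htr1a* encodes the Gi/o-coupled 5-HT1A receptor, an autoreceptor on raphe neurons and a postsynaptic receptor in the cortex, in a single exon on chromosome 13 (GRCm39, 105580147 to 105584630, plus strand). The eGFP libraries had 9.57, 9.53, 9.74 and 9.67 in pairs 1 to 4, and the Rnf146 libraries had 9.97, 10.01, 9.80 and 9.87. All 4 pairs were higher here too, but the gap was small in pair 3. Its differences of 0.40, 0.48, 0.07 and 0.19 gave a mean of 0.28 ± 0.19 (± SD over 4 pairs) with an adjusted p of 0.156 from limma, so it was not called. The study itself lists *Htr1a*, with *Htr7*, among its upregulated genes at a false discovery rate of 0.1 or less. Here *Htr1a* was called in 1 of the 14 alternatives, the fit without the replicate block. In counts this was 1.38-fold (95% interval 1.15 to 1.66).

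*Htr1b* encodes the presynaptic 5-HT1B receptor, which holds back transmitter release. It lies on chromosome 9 (GRCm39, 81510344 to 81515902, minus strand). Pair 2 had a difference of 0.24 and pairs 3 and 4 had -0.14 and -0.10, with 0.00042 in pair 1. The mean was -0.00020 ± 0.17 (± SD over 4 pairs), so the pairs differed among themselves while their average stayed at 0, and the 95% interval in counts ran from 0.841-fold to 1.19-fold.

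*Htr1f* (GRCm39, chromosome 16, 64742111 to 64926217, minus strand) and *Htr5a* (chromosome 5, 28047147 to 28063529, plus strand) complete the Gi/o-coupled members. *Htr1f* had differences from -0.02 to 0.07 and a mean of 0.01 ± 0.04 (± SD over 4 pairs). *Htr5a* was lower in all 4 pairs, but by only 0.01 to 0.06, with a mean of -0.03 ± 0.02 (± SD over 4 pairs) and an adjusted p of 0.875 from limma. Its SD between pairs was at percentile 1.297 of all genes and that of *Htr1f* at 6.55, so both varied little on the deposited scale. That scale compresses *Htr1f* more, and in log2 approximate counts the SDs were 0.04 for *Htr5a* and 0.12 for *Htr1f*. The 95% interval in counts was 0.832-fold to 1.27-fold for *Htr1f* and 0.864-fold to 1.09-fold for *Htr5a*.

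*Htr2c* had the largest mean difference of the family on the deposited scale, while in approximate counts that of *Htr7* was larger. It encodes the Gq-coupled 5-HT2C receptor, whose RNA is edited, and lies on chromosome X (GRCm39, 145745509 to 145980286, plus strand), in a span that also holds several miRNA genes. The eGFP libraries had 10.20, 10.21, 10.59 and 10.38 in pairs 1 to 4 and the Rnf146 libraries had 10.97, 10.96, 10.58 and 10.79. Pairs 1 and 2 were far apart, and pair 3 was level, so the groups overlapped there. The differences were 0.78, 0.75, -0.01 and 0.41, with a mean of 0.48 ± 0.37 (± SD over 4 pairs), rank 62 of all genes by absolute difference. The adjusted p was 0.142 from limma, and the SD between pairs was at percentile 98.9 of all genes. Without pair 3 the mean was 0.65 and *Htr2c* was called (adjusted p = 0.027). In counts the difference was 1.55-fold (95% interval 1.22 to 1.99), and the single pairs ran from 0.995-fold to 2.03-fold.

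*Htr2a*, the other Gq-coupled receptor, is the site of action of classical hallucinogens and lies on chromosome 14 (GRCm39, 74877344 to 74946934, plus strand). Its eGFP libraries had 10.43, 10.34, 10.20 and 10.38 in pairs 1 to 4, and its Rnf146 libraries had 10.09, 10.18, 10.32 and 10.14. The Rnf146 library was lower in pairs 1, 2 and 4 and higher in pair 3, the pair in which *Htr2c* was level. The differences of -0.34, -0.16, 0.12 and -0.24 had a mean of -0.16 ± 0.20 (± SD over 4 pairs) and an adjusted p of 0.441 from limma. The mean was -0.25 without pair 3 and -0.09 without pair 1, and *Htr2a* was called in none of the alternatives run. In counts it was 0.859-fold (95% interval 0.728 to 1.013).

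*Htr3a* encodes the channel subunit that every 5-HT3 receptor needs, on chromosome 9 (GRCm39, 48810512 to 48822686, minus strand). Its eGFP libraries had 8.90, 9.02, 9.03 and 9.02 in pairs 1 to 4 and its Rnf146 libraries had 8.91, 8.80, 8.79 and 8.80. Pairs 2, 3 and 4 were lower by 0.22, 0.23 and 0.21, and pair 1 differed by 0.01 in the other direction. The mean was -0.16 ± 0.12 (± SD over 4 pairs), with an adjusted p of 0.276 from limma. Without pair 1 it was -0.22, and *Htr3a* was called lower (adjusted p = 0.094). In counts the difference was 0.751-fold (95% interval 0.601 to 0.939).

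**Figure D2:**
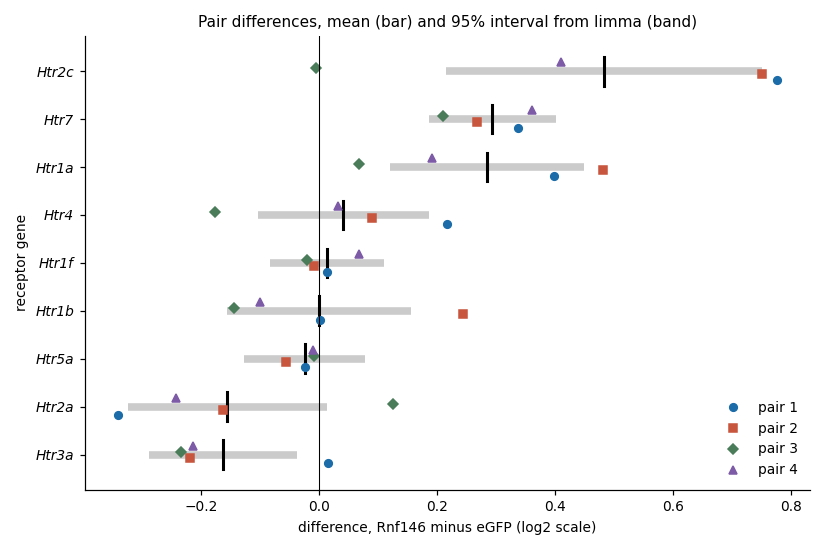
Difference of each receptor gene in the 4 pairs (points), with the mean (bar) and the 95% interval from limma with the replicate block (band), on the log2 scale. The 4 points of *Htr7* lie close together between 0.21 and 0.36, while those of *Htr2c* run from -0.01 to 0.78.

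Across the 9 receptors, 2 were higher in all 4 pairs (*Htr7* and *Htr1a*), 1 was lower in all 4 (*Htr5a*) and 6 had pairs of both signs. Among all genes, 20.6% kept 1 direction in all 4 pairs, 10.4% higher and 10.2% lower. The exact sign-flip test of 4 pairs has a smallest two-sided p of 0.125, which these 3 receptors reached, so no receptor could pass 0.05 by it. Without the replicate block, which takes the centred values for 8 independent libraries, 4 receptors were called, *Htr7*, *Htr1a* and *Htr2c* higher and *Htr3a* lower, against 21.5% of all genes, 11% higher and 10.4% lower.

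The order of expression was read from the approximate counts per kb of the canonical transcript. *Htr2c* was highest, at 248 per kb with a range of 167 to 339 over the 8 libraries, and *Htr1f* was lowest, at 17.4 per kb with a range of 16.2 to 18.7. Below *Htr2c* came *Htr2a* at 130, *Htr1a* at 114 and *Htr1b* at 112 per kb, and the ranges of these 3 overlapped. *Htr4* and *Htr3a* followed at 74.5 and 66.3 per kb, then *Htr5a* at 53.6 and *Htr7* at 43.9, and each of these overlapped the next. *Htr7* ran from 31.0 to 35.8 per kb in eGFP libraries and from 51.2 to 57.6 in Rnf146 libraries, which in the latter overlapped the range of *Htr5a* (51.8 to 53.3). The order above is over all 8 libraries, and neighbours changed places within the groups. In eGFP libraries *Htr1b*, at 112 per kb, was above *Htr1a*, at 96.2, and *Htr3a*, at 75.7, was above *Htr4*, at 71.3. In Rnf146 libraries *Htr1a*, at 133, was above *Htr2a*, at 120, and *Htr7*, at 54.7, was above *Htr5a*, at 52.8. The length is that of 1 transcript model per gene (1.267 kb for *Htr4*, 8.819 kb for *Htr5a*), and the order depends on that choice. The ranges come from the centred values, so they leave out variation between pairs and may understate how far the receptors overlap.

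**Figure D3:**
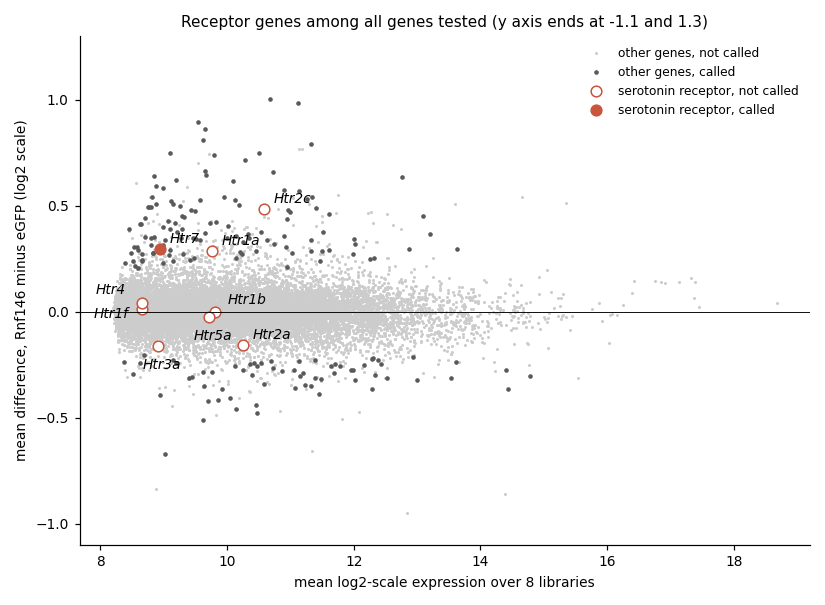
Mean difference against mean log2-scale expression for all genes, with the 9 receptors circled and called genes drawn dark. *Rnf146*, at 2.64, lies beyond the axis and is not drawn. On this scale *Htr2c* stands higher than *Htr7* but is not called, and the receptors lie between percentiles 15.0 and 67.8 of mean expression.

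The other genes of serotonin signaling were read from 6 lists with 66 genes, of which 57 were in the table. Of these 57 genes, 0 were called higher and 1 was called lower by limma with the block, *Kcnj9*, which encodes a GIRK channel subunit. This is set against 1.25% of all genes called in either direction. At an unadjusted p below 0.05, 5 were higher and 3 lower, where 12.4% of all genes had such a p, so both counts were near the background. The median difference of the 57 genes was -0.0061, and their means ran from -0.28 to 0.41.

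*Kcnj9* was lower in all 4 pairs, by 0.29, 0.36, 0.28 and 0.18, with a mean of -0.28 ± 0.07 (± SD over 4 pairs) and an adjusted p of 0.055 from limma, and the call was lost without pair 2 (adjusted p = 0.264 from limma), pair 3 (0.119) or pair 4 (0.192). It was the only one called of the 8 genes of Gi/o proteins and GIRK channels in the table, where *Gnai1*, a Gi subunit, had a mean of 0.11 ± 0.12. Of the 16 genes of Gs proteins, adenylyl cyclases and PKA, 0 were called. An unadjusted p below 0.05 was seen in 4, not all of them higher. *Adcy5*, an adenylyl cyclase of the striatum, had 0.41 ± 0.47, and *Gnal*, the Gs-like subunit of striatal neurons, had 0.39 ± 0.26, with 0.76 in pair 2 (± SD over 4 pairs for both). These are the 2 with the largest absolute means of the list, and *Adcy5* is also a marker in the striatum list below.

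Of the 12 genes of the Gq branch, 0 were called and 3 had an unadjusted p below 0.05. The phospholipase gene *Plcb4* had a mean of 0.18 ± 0.14 there. The 14 genes of receptor partners and regulators, 0 called, had a median of -0.0015, with -0.08 ± 0.23 for *Rgs4* and 0.09 ± 0.08 for *Rgs19*, both of which encode regulators of G protein signaling. The 6 genes of serotonin synthesis, transport and breakdown, 0 called, were led by 0.09 ± 0.08 for *Ddc*, the decarboxylase that makes serotonin and dopamine, and 0.06 ± 0.16 for the monoamine transporter gene *Slc29a4*. In these last 2 lists 0 genes had an unadjusted p below 0.05. Of 4 other serotonin receptor genes looked for, 1 was in the table, *Htr6*, which had 0.05 ± 0.08 (± SD over 4 pairs).

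**Figure D4:**
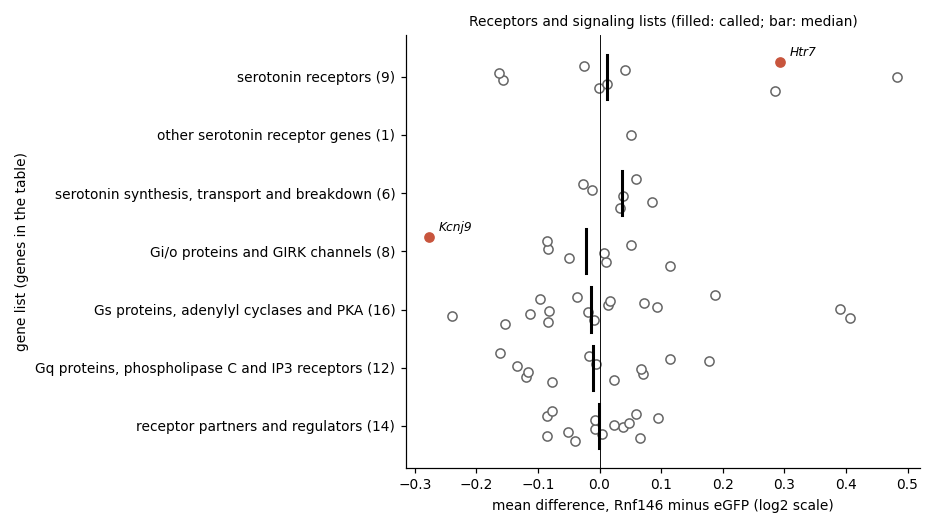
Mean difference of each gene in the receptor family and in 6 lists of serotonin signaling, with called genes filled and the list median as a bar. *Htr7* and *Kcnj9* are the 2 filled points, on opposite sides of 0, and the list medians lie near 0.

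Markers of other regions and cell types also differed between the groups. The septum and basal forebrain list was higher by 0.58, 0.78, 0.33 and 0.63 in pairs 1 to 4, and all 5 of its 11 genes in the table were called higher, led by *Zic1* at 0.99 ± 0.37 (± SD over 4 pairs), while 0 of the 5 were called without pair 4. Its mean level was 9.45 to 9.68 in eGFP and 10.01 to 10.23 in Rnf146 libraries, and *Lhx8*, *Gbx1*, *Nkx2-1*, *Chat* and *Slc18a3* were among its markers not in the table. The list was lowest in pair 3. So were 7 of the 9 receptors, those with a mean near or below 0 such as *Htr1b*, *Htr3a* and *Htr4* included. How many of all genes were lowest there was not counted, so no likeness to the list can be read from this. *Htr3a* was nearly level in pairs 2, 3 and 4, at -0.22, -0.23 and -0.21. *Htr2a* was lowest in pair 1 and *Htr5a* in pair 2.

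Cortical excitatory markers were lower by 0.22, 0.35, 0.05 and 0.18, with 2 of 9 genes called lower, *Slc17a7* and *Neurod2*, of which 0 were called without pair 2 or without pair 4. Their mean level was 11.25 to 11.40 in eGFP and 11.05 to 11.20 in Rnf146 libraries. The striatum list (12 of 13 genes in the table, 0 called, 10 with an unadjusted p of 0.05 or less) had -0.10, 1.20, 0.64 and 0.27. Its mean level was 10.22 to 10.87 in eGFP and 10.77 to 11.42 in Rnf146 libraries. The oligodendrocyte list (8 genes, 0 called, 8 with an unadjusted p of 0.05 or less) had -0.13, 0.47, 0.90 and 0.55, with a mean level of 11.93 to 12.45 and 12.32 to 12.83. The part of any of these in the receptor differences was not tested.

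**Figure D5:**
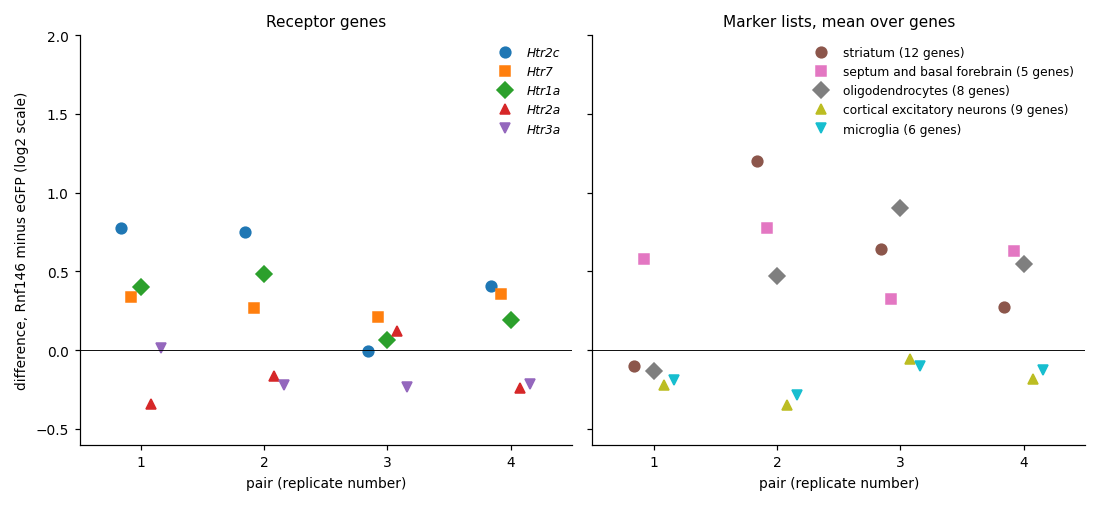
Differences by pair for 5 receptor genes (left) and for the mean of 5 marker lists (right), on the log2 scale; pairs are replicate numbers and have no order. *Htr2c*, *Htr7*, *Htr1a*, *Htr3a* and the septal list are lowest in pair 3, at -0.01, 0.21, 0.07, -0.23 and 0.33, while *Htr2a* is highest there, at 0.12. The share of all genes lowest in that pair was not counted.

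*Htr3a* was read beside the markers of interneurons from the caudal ganglionic eminence, where it is expressed. All 9 of these genes were in the table and 0 were called, 5 with an unadjusted p of 0.05 or less. Their mean difference was -0.0048, -0.02, -0.15 and 0.01 in pairs 1 to 4, with a mean level of 10.003 to 10.08 in eGFP and 9.93 to 10.02 in Rnf146 libraries. *Vip* had -0.23 ± 0.12 and *Prox1* had 0.19 ± 0.17 (± SD over 4 pairs), so these markers did not share a direction. Interneurons of the medial ganglionic eminence, with 4 of 5 genes in the table, 0 called by limma and 0 with an unadjusted p of 0.05 or less, had a mean difference of -0.02 ± 0.07.

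Choroid plexus, where *Htr2c* is strongly expressed, was represented by 2 of 8 markers, and its defining marker *Ttr* was not in the table. *Clic6* was called higher, at 0.54 ± 0.05 (± SD over 4 pairs) with an adjusted p of 0.0044 from limma, and *Kl* had -0.04 ± 0.12. The mean level of the 2 genes was 8.63 to 8.68 in eGFP and 8.89 to 8.95 in Rnf146 libraries. Of the 5 markers of serotonergic neurons, whose cell bodies lie in the brainstem, 0 were in the table. The microglia list (6 genes, 0 called, 3 with an unadjusted p of 0.05 or less) averaged -0.18 ± 0.08, and the astrocyte and endothelium lists (6 and 5 genes, 0 called and 0 with such a p) averaged -0.03 ± 0.04 and 0.02 ± 0.06 (± SD over 4 pairs).

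An lncRNA gene overlaps *Htr1b*, *Htr3a* and *Htr5a* each on the opposite strand, and 2 overlap *Htr2c*. The library kit keeps the strand, but whether the quantification used it is not given in the sources used here. Overlap was read from whole gene spans, introns included, and overlap of exons was not checked. Whether reads of such partners count towards these 4 receptors is therefore unknown. *Htr7*, *Htr1a*, *Htr1f*, *Htr2a* and *Htr4* overlap no other annotated gene.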

How the data were processed

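PFC RNA of 4 mice per group was sequenced. Group and replicate number come from the labels. Trimming by the authors was with Cutadapt, and quantification with Salmon 1.9.0 (GENCODE vM30, GRCm39). The authors named the deposited table for normalized counts, but its values lie on a log2 scale and are centred within same-numbered pairs. The sample records also name DESeq and DESeq2 among the tools, without a version. How the deposited values were normalized and centred is not given in the sources used here. No counts were available, so depth and counting precision are unknown and no count test was run.

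All 15039 genes were fitted in R 4.3.3 by limma 3.58.1 (lmFit, eBayes with trend), with the replicate number as a block, since the centred values hold 4 independent differences (3 residual degrees of freedom in place of 6). The pairing comes from the labels' numbers and from the centring, which fixes the correlation of paired deviations. The p-values and intervals do not rest on the spread between a gene's own pairs alone. The eBayes step drew each variance towards a trend over all genes and added to the 3 residual degrees of freedom. The limma standard error of the mean was 0.045 for *Htr5a*, above even its SD of single pairs of 0.022. For *Htr2c* it was 0.12, with an SD of single pairs of 0.37. A standard error of a mean is smaller than the SD of single pairs, so these are unlike measures. Intervals from the 4 pairs alone were not computed. By the SDs between pairs they would be wider for *Htr2c*, *Htr1a*, *Htr3a*, *Htr2a*, *Htr1b* and *Htr4*. The intervals given above for *Htr2c*, *Htr1a* and *Htr3a* leave out no change, and those from the 4 pairs alone would not. The test was checked on simulated data in which genes varied independently of each other. That check cannot give the error rate in these data, where genes may vary together within a pair. Approximate counts were read on a variance-stabilizing curve calibrated on mean counts in the study's supplement, which cover 294 of these genes, all ones it selected as changed (median absolute residual 0.00583, largest 0.539), and back-transformed values were tested as log2 with a pseudocount of 0.5 or 5. No filter on low values was applied. Gene models are those of GENCODE vM39 (GRCm39), and promoters those of RefSeq (GRCm38.p6), with chromosome 18 left out. Figures were drawn with matplotlib 3.10.9 in Python 3.11.15.

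The members and gene lists were chosen with earlier results of these data known. The genes named are the receptors, *Rnf146*, the called genes and the 2 with the largest absolute mean difference of each list, and the 3 genes nearest to each called receptor. Of the marker lists only the genes on which a result turned are named. *Ttr* was named after its absence was seen. A gene that the rule names in 1 signaling list is not reported here. The alternatives were no block, an adjusted p of 0.05, median centring, quantile normalization, the genes in the lowest 25% of mean values left out, no variance trend, a robust prior, the 2 back-transformations, each pair left out and, chosen after seeing the data, the lowest 10% left out. Every library was used.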

Additional observations from a re-analysis of the deposited data

Results flagged for a closer look

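*Htr3a* stood apart in pair 1, with a difference of 0.014 against -0.23 to -0.21 in the other 3 pairs. The gap to the nearest pair took 0.922 of the range, above Dixon's 95% critical value for 4 values. *Plcb4* stood apart in the same pair, with 0.38 against 0.09 to 0.14 in the others and a ratio of 0.830. These were 2 of 21 genes checked, and chance flags about 1 in 20. Because the values are centred, which of the 2 libraries of pair 1 is unusual cannot be told.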

How the results depend on the processing

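*Htr7* was past the threshold in 11 of the 13 alternatives in which it was tested, with adjusted p-values from 0.00053 to 0.245 from limma, and was lost without pair 2 and without pair 4, where 3 pairs were left. Its mean stayed between 0.27 and 0.72, the upper end on the count scale. The number of receptors called was 4 with no replicate block, and 0 with the lowest 25% of mean values left out. The latter setting removed *Htr7*, *Htr3a*, *Htr1f* and *Htr4* from the fit. Of the receptors left, 2 had an unadjusted p below 0.05, as did 1490 of all genes in that fit. The number of receptors called ran from 0 to 2 with single pairs left out. The receptors with a positive or negative mean kept that sign in every alternative run, except *Htr1b* (0.0019 after median centring, which shifts all genes alike, and -0.082 to 0.048 with a pair left out), *Htr1f* (-0.0058 to 0.024) and *Htr4* (-0.018 to 0.11), the last 2 also with a pair left out. Of all genes, 3226 (21.5%) were called with no replicate block, 80 at an adjusted p of 0.05 and 14 to 421 with a pair left out. Of the 57 signaling genes, 22 were called with no replicate block, 0 at an adjusted p of 0.05 (8 with an unadjusted p below 0.05) and 0 to 3 with a pair left out. Of the 66 marker genes in the table, 8 were called, 41 with no replicate block, 4 at an adjusted p of 0.05 and 1 to 23 with a pair left out. For the calls gained with no block, the residual degrees of freedom counted rise from 3 to 6. The cause of the other changes was not tested. The unknown depth and the compressed scale limit what can be said of *Htr1f* and *Htr4*, which had the lowest deposited values.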
